A study of Drosophila melanogaster with 6 samples.

Results

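The 33 aminoacyl-tRNA synthetase genes described here are those, out of 17606 genes in the expression table, whose symbol is an amino acid code followed by RS, with or without the ending -m. The 15 genes with the ending encode enzymes of mitochondria and the 18 without it encode the enzymes of the cytosol. This spelling leaves out the subunits of the cytosolic phenylalanyl enzyme, whose symbols carry a hyphen, and they are given apart from the others. Whole *Drosophila* larvae in the last larval instar came from 2 genotypes. Larvae of *ecd1* were homozygous for a recessive, temperature-sensitive point mutation in the splicing regulator gene *ecd*, and *w1118* is the control strain. Larvae of both genotypes grew at 18°C for 10 days and then stayed at 29°C for 2 days, so the heat was shared by mutant and control. Each sample was total RNA pooled from 8 larvae, with 3 biological replicates per genotype and 6 samples in all. For the sequenced larvae, the sources used here state neither the sex nor whether the *ecd1* strain was on the *w1118* background. The comparison asks how the mutant transcriptome differs from the control after the upshift.

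Aminoacyl-tRNA synthetases join each amino acid to its tRNA, the step that sets the genetic code during translation. Animal cells need the reaction in the cytosol, where most proteins are made, and inside mitochondria, where the few proteins of the mitochondrial genome are made on separate ribosomes. The mitochondrial enzymes are encoded in the nucleus and imported, and for some amino acids the same gene serves both compartments. The enzymes fall into 2 structural classes, I and II, that evolved separately and hold the ATP in different folds. In the cytosol, several synthetases sit together in a multisynthetase complex held by the scaffold proteins AIMP1, AIMP2 and AIMP3.

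The authors' table holds normalized counts, which are read counts per gene divided by a size factor per sample. The reads recovered from it came to 78438192 to 118102006 in *ecd1* samples and to 74819556, 74581798 and 107943245 in *w1118* replicates 1 to 3. Reads fell about equally on both strands (a share of at most 0.503 on either one), so overlapping genes on opposite strands cannot be told apart. Mean insert size was 138.7 ± 0.503 bases in *ecd1* and 161.5 ± 1.37 bases in *w1118* (SD, n = 3 each) without overlap, and its part in any difference cannot be told apart from genotype. By Spearman correlation over genes, *w1118* replicate 1 was the control least like the rest, at 0.973 and 0.974 with the others, which had 0.995 with each other. The *ecd* gene had 2111, 2218 and 2397 normalized counts in *ecd1* and 2085, 1563 and 1565 in *w1118* (limma adjusted p = 0.0769). Its mutation is a single substitution, so this level does not check the labels. Marker genes of tissues in a whole larva were summed per sample. Over 6 fat body genes, normalized counts ranged from 381757 to 5237743 in *ecd1* and from 6022123 to 8913349 in *w1118*, and over 4 muscle genes from 3250571 to 3593820 in *ecd1* and from 2202192 to 2762638 in *w1118*, without overlap in either, but 0 of 6 and 0 of 4 of these genes were called. The 7 salivary glue genes summed to 164 to 527 in *ecd1* and to 217 to 727436 in *w1118*, the upper end being *w1118* replicate 1. Limma on all samples called 0 of 7. By edgeR, and by limma without *w1118* replicate 1, 1 of the 7 was called lower, against 18.5% and 21.2% of all genes. The 4 neuron genes summed to 9961 to 12164 in *ecd1* and to 10811 to 13427 in *w1118*, with overlap. Of these 2 had a positive log2 fold change and 1 rose, *brp* (0.38, limma adjusted p = 0.0238), against 16.0% of all genes. None rose when scaled to the total or when any sample but *w1118* replicate 1 was left out. The male germ line genes summed to 3190 to 5629 in *ecd1* and to 9833 to 14707 in *w1118*, and 13 of 18 tested fell, against 19.1% of all genes. Their part in the results on synthetases was not tested, and in whole larvae fewer cells of a type and less RNA per cell cannot be told apart.

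Synthetase mRNAs were higher in *ecd1* larvae in both compartments, and the mitochondrial ones held the largest changes. Of the 33 genes, all of which passed the filter on low values, 26 rose in *ecd1*, none fell and 7 did not pass the test (limma on log2 of normalized count + 1, adjusted p below 0.05 over the 12930 genes tested). Among all genes tested, 16.0% were called higher and 19.1% lower. At an unadjusted p below 0.05 the count that fell was also 0, against 24.4% of all genes. It was 0 as well at an adjusted p below 0.05 with edgeR, which called 18.5% of all genes lower, and with DESeq2, which called 22.7% lower. The log2 fold change was positive in 33 of 33 synthetase genes, against 50.6% of all genes tested. In 28 of the 33, all *ecd1* samples lay above all *w1118* samples, against 26.7% of genes tested. The median log2 fold change was 0.70 over the mitochondrial genes (range 0.09 to 1.28) and 0.53 over the cytosolic genes (range 0.09 to 0.74), against 0.01 over all genes. Of the mitochondrial genes 11 of 15 rose and of the cytosolic genes 15 of 18. A rise of at least 2-fold was seen in 4 mitochondrial genes and in no cytosolic gene, against 5.10% of genes tested. When samples were scaled to their total counts, 9 mitochondrial and 10 cytosolic genes rose, against 11.4% of all genes called higher and 21.3% lower.

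**Figure D1:**
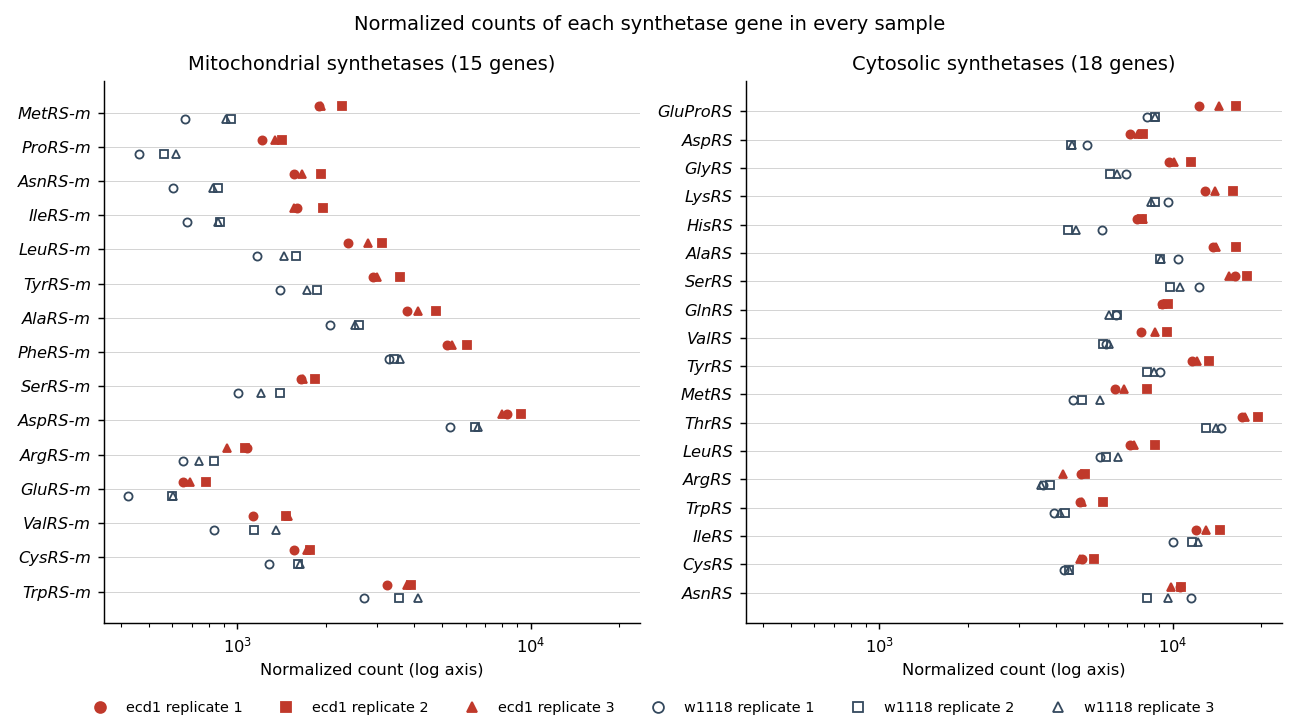
Normalized counts (log axis) of the 15 mitochondrial and 18 cytosolic synthetase genes in each sample, with filled red symbols for *ecd1* and open blue symbols for *w1118*, 1 symbol shape per replicate number. Genes run from the largest change at the top to the smallest, and in 28 of the 33 the *ecd1* samples lie above every *w1118* sample.

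The 4 mitochondrial genes with the largest rise encode the methionyl, prolyl, asparaginyl and isoleucyl enzymes. *MetRS-m* (dm6, chr3R:14249043-14259991), whose product also charges the tRNA that starts mitochondrial proteins, had 1891, 2277 and 1920 normalized counts in *ecd1* and 661, 952 and 916 in *w1118*. The lowest *ecd1* sample stood well above the highest *w1118* sample, and *w1118* replicate 1 was the lowest of all. This was a log2 fold change of 1.28 (SE 0.17, limma adjusted p = 0.00468), or 2.41-fold between the means. *ProRS-m* (chr3L:2650161-2651850) had 1214, 1415 and 1338 normalized counts in *ecd1* and 461, 564 and 618 in *w1118*. The genotypes again did not overlap, and *w1118* replicate 1 was lowest. Its log2 fold change was 1.28 (SE 0.15, limma adjusted p = 0.00370).

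*AsnRS-m* (chr2R:17001994-17003599) had 1564, 1920 and 1654 normalized counts in *ecd1* and 605, 856 and 825 in *w1118*. All mutant samples were above all controls, with *ecd1* replicate 2 highest. The log2 fold change was 1.18 (SE 0.17, limma adjusted p = 0.00508). *IleRS-m* (chr3L:16100280-16103482) had 1595, 1950 and 1560 normalized counts in *ecd1* and 674, 874 and 861 in *w1118*. The order of the samples was much the same, with *ecd1* replicate 2 at the top and *w1118* replicate 1 at the bottom. It rose by 1.09 on the log2 scale (SE 0.15, limma adjusted p = 0.00503), or 2.12-fold.

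The next mitochondrial genes rose by less than 2-fold. *LeuRS-m*, for the leucyl enzyme, averaged 2763 ± 366 normalized counts in *ecd1* and 1397 ± 213 in *w1118* (SD, n = 3 each), a log2 fold change of 0.99 (SE 0.16, limma adjusted p = 0.00607). *TyrRS-m* and *AlaRS-m*, for the tyrosyl and alanyl enzymes, rose by 0.93 (SE 0.15, adjusted p = 0.00599) and 0.82 (SE 0.13, adjusted p = 0.00619) by limma. *PheRS-m* encodes an enzyme that works as a single chain, while the cytosolic phenylalanyl enzyme is built from alpha and beta subunits. It had 5181, 6081 and 5405 normalized counts in *ecd1* and 3282, 3411 and 3578 in *w1118*, without overlap, and rose by 0.70 on the log2 scale (SE 0.10, limma adjusted p = 0.00482). *SerRS-m*, *AspRS-m* and *ArgRS-m*, for the seryl, aspartyl and arginyl enzymes, rose by 0.53, 0.48 and 0.46 on the log2 scale (limma adjusted p = 0.0287, 0.0201 and 0.0401). *ArgRS-m* shares 11.8% of its exon bases with *mRpS9*, a mitochondrial ribosomal protein gene that itself had a log2 fold change of 0.75, and *SerRS-m* shares 13.9% with *Nagk*. The sources do not say how the authors counted reads in such overlaps.

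The glutamyl, valyl, cysteinyl and tryptophanyl mitochondrial genes did not pass the test. *GluRS-m*, whose enzyme also supplies the misacylated tRNA from which mitochondria make glutaminyl-tRNA, had 651, 779 and 690 normalized counts in *ecd1* and 424, 600 and 602 in *w1118*. The samples did not overlap, but *w1118* replicate 1 lay far under the other controls. The log2 fold change was 0.40, with a 95% confidence interval of −0.03 to 0.82 (limma adjusted p = 0.130). *ValRS-m* had 1126, 1464 and 1493 normalized counts in *ecd1* and 830, 1143 and 1350 in *w1118*. Here *ecd1* replicate 1 fell among the control samples, and the log2 fold change was 0.31 (95% confidence interval −0.18 to 0.81, limma adjusted p = 0.278). *CysRS-m* had a log2 fold change of 0.17 (interval −0.14 to 0.48) and *TrpRS-m* of 0.09 (interval −0.31 to 0.49). Changes close to those of *LeuRS-m* lie outside all 4 intervals, whereas changes of the size seen in *AspRS-m* lie within those of *GluRS-m*, *ValRS-m* and *TrpRS-m*. *CysRS-m* shares 14.3% of its exon bases with *CG13016*.

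**Figure D2:**
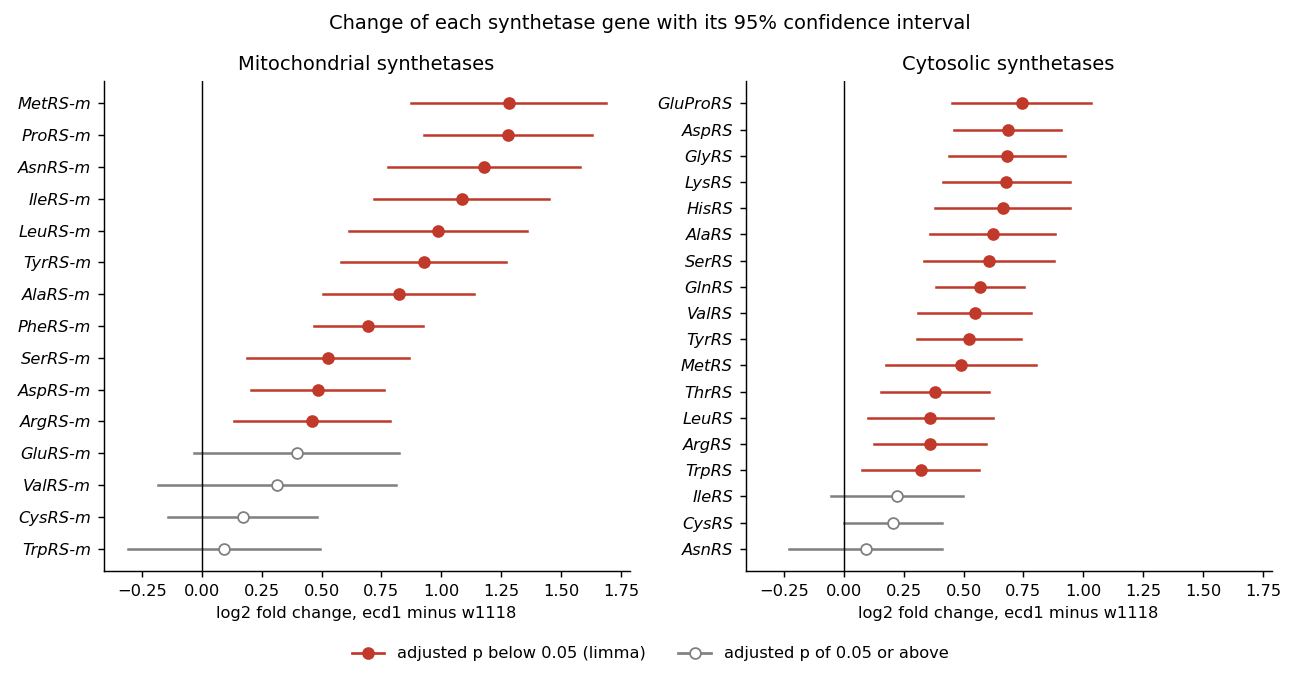
Log2 fold change of each synthetase gene (*ecd1* minus *w1118*, points) with its 95% confidence interval from limma (lines), mitochondrial genes on the left and cytosolic genes on the right. Filled red points mark the 11 mitochondrial and 15 cytosolic genes that rose at an adjusted p below 0.05, and all 33 points lie right of 0.

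In the cytosol the largest change was that of *GluProRS* (chr3R:23952136-23958391), which encodes a single protein with a glutamyl and a prolyl enzyme, one of each class. It had 12252, 16473 and 14359 normalized counts in *ecd1* and 8173, 8711 and 8702 in *w1118*. The controls were close together and the mutant samples spread more, with no overlap. The log2 fold change was 0.74 (SE 0.12, limma adjusted p = 0.00654), or 1.68-fold, and 16.6% of its exon bases are shared with the antisense gene *asRNA:CR46092*. *LysRS* (chrX:9606363-9608884), for the lysyl enzyme, had 12842, 16003 and 13973 normalized counts in *ecd1* and 9607, 8691 and 8408 in *w1118*. Here *w1118* replicate 1 was the highest control, unlike in the mitochondrial genes, and the log2 fold change was 0.68 (SE 0.11, limma adjusted p = 0.00654).

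*GlyRS* (chr3L:15095142-15097686), for the glycyl enzyme, had 9709, 11512 and 10097 normalized counts in *ecd1* and 6949, 6116 and 6459 in *w1118*. The genotypes were apart by more than the spread within either of them. It rose by 0.68 on the log2 scale (SE 0.10, limma adjusted p = 0.00537). *AspRS* (chr2R:12877004-12883168), for the aspartyl enzyme, had 7129, 7940 and 7630 normalized counts in *ecd1* and 5106, 4484 and 4541 in *w1118*. It too showed no overlap, with a log2 fold change of 0.68 (SE 0.09, limma adjusted p = 0.00479). Its value is less certain than the rest because 73.5% of its exon bases are shared with other genes. These partners are *asRNA:CR43468*, with 75.4, 194 and 102 normalized counts in *ecd1* and 17.9, 59.0 and 56.6 in *w1118*, *asRNA:CR45141*, with 10.4 to 17.6 in *ecd1* and 2.36 to 11.9 in *w1118*, and *Nmda1*, a receptor subunit gene that averaged 7732 ± 519 normalized counts in *ecd1* and 7211 ± 289 in *w1118* (SD, n = 3 each).

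The other 11 cytosolic genes that rose lay between log2 fold changes of 0.32 and 0.66. *HisRS* (0.66), *AlaRS* (0.62), *SerRS* (0.61), *GlnRS* (0.57), *ValRS* (0.55) and *TyrRS* (0.52), for the enzymes of histidine, alanine, serine, glutamine, valine and tyrosine, had limma adjusted p-values between 0.00479 and 0.00899. *MetRS* (0.49), *ThrRS* (0.38), *LeuRS* (0.36), *ArgRS* (0.36) and *TrpRS* (0.32), for methionine, threonine, leucine, arginine and tryptophan, had limma adjusted p-values from 0.0224 up to just under the threshold of 0.05, where *TrpRS* lay. The asparaginyl, cysteinyl and isoleucyl genes did not pass. *AsnRS* had 10553, 10642 and 9826 normalized counts in *ecd1* and 11533, 8186 and 9664 in *w1118*. The control samples spanned the mutant ones, and the log2 fold change was 0.09 (95% confidence interval −0.23 to 0.41, limma adjusted p = 0.621). *IleRS* had 0.22 (interval −0.05 to 0.50), and *CysRS* had 0.20 (limma adjusted p = 0.108) although its samples did not overlap.

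The subunits of the cytosolic phenylalanyl enzyme, which the spelling rule leaves out, lay in the same range. *alpha-PheRS* had 6122, 5857 and 5469 normalized counts in *ecd1* and 4752, 4007 and 4046 in *w1118*, and *beta-PheRS* had 7126, 7329 and 6309 in *ecd1* and 5206, 4231 and 4674 in *w1118*. Both were apart between the genotypes. Their log2 fold changes were 0.45 (SE 0.10, limma adjusted p = 0.0168) and 0.56 (SE 0.11, limma adjusted p = 0.0107). The call on *alpha-PheRS* was lost without *ecd1* replicate 1 (limma adjusted p = 0.0505), *ecd1* replicate 2 (0.0642), *w1118* replicate 2 (0.0585) or *w1118* replicate 3 (0.0662).

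Some calls near the threshold were lost when a sample was left out, which also leaves fewer samples for the test. Leaving out 1 sample changed the share of all genes called higher to 12.7% without *ecd1* replicate 1, 6.89% without replicate 2 and 10.4% without replicate 3, and to 18.8%, 10.7% and 10.0% without *w1118* replicates 1, 2 and 3. The calls on *MetRS-m*, *ProRS-m*, *AsnRS-m*, *IleRS-m*, *LeuRS-m*, *TyrRS-m*, *AlaRS-m* and *PheRS-m*, which are 8 of the 11 mitochondrial genes that rose, were kept under 14 of 14 alternatives, and so were those on 10 of the 15 cytosolic genes, from *GluProRS* down to *TyrRS*. The log2 fold changes of the other 8 genes that rose stayed positive whichever sample was left out, at 0.39 to 0.58 for *MetRS*, 0.32 to 0.42 for *ThrRS*, 0.27 to 0.42 for *LeuRS*, 0.31 to 0.43 for *ArgRS*, 0.24 to 0.37 for *TrpRS*, 0.41 to 0.64 for *SerRS-m*, 0.38 to 0.54 for *AspRS-m* and 0.37 to 0.54 for *ArgRS-m*. The calls on *LeuRS* and *TrpRS* were lost whichever sample was left out (limma adjusted p of 0.0512 to 0.135 and of 0.0611 to 0.158). *MetRS* was lost without *ecd1* replicate 2 (0.0926) or 3 (0.0636) or *w1118* replicate 2 (0.0794) by limma. *ThrRS* was lost without *ecd1* replicate 2 (0.0871) or 3 (0.0563) or *w1118* replicate 2 (0.0775) or 3 (0.0701), and *ArgRS* without *ecd1* replicate 1 (0.0804) or 2 (0.115) or *w1118* replicate 2 (0.0629) or 3 (0.101). In mitochondria *SerRS-m* was lost without *ecd1* replicate 1 (0.0595), 2 (0.107) or 3 (0.0674) or *w1118* replicate 3 (0.0776), and *AspRS-m* without *ecd1* replicate 2 (0.0794). *ArgRS-m* was lost without *ecd1* replicate 1 (0.106), 2 (0.136) or 3 (0.0530) or *w1118* replicate 1 (0.0541) or 3 (0.104). With the replicate number as a block, under which 15.5% of all genes were called higher, limma did not call *ThrRS* (adjusted p = 0.0575), *LeuRS* (0.0612), *TrpRS* (0.0599) or *ArgRS-m* (0.0501).

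Single samples stood out across many synthetase genes at once. The mitochondrial genes had 38122, 45183 and 40038 normalized counts in sum in *ecd1* and 22511, 28265 and 28700 in *w1118*, and the cytosolic genes had 175842, 204281 and 182073 in *ecd1* and 137930, 127774 and 133418 in *w1118*. Neither sum overlapped between the genotypes. *ecd1* replicate 2 was the highest mutant sample in 13 of 15 mitochondrial and 17 of 18 cytosolic genes. *w1118* replicate 1 was the lowest control in 15 of 15 mitochondrial genes, but among the 18 cytosolic genes it was the lowest in 6 and the highest in 9. Set against the *w1118* mean, the median log2 difference of the mitochondrial genes was 0.60, 0.83 and 0.66 in *ecd1* and −0.24, 0.13 and 0.12 in *w1118*. That of the cytosolic genes was 0.43, 0.66 and 0.51 in *ecd1* and 0.05, −0.03 and −0.00 in *w1118*. *w1118* replicate 1 is also the sample with the high salivary glue genes. *ecd1* replicate 2 is also the sample with the lowest sum of the fat body genes, 381757 normalized counts. Whether either bears on the synthetases was not tested. Without *w1118* replicate 1, 10 mitochondrial and 13 cytosolic genes rose, against 18.8% of all genes, with medians of 0.67 and 0.55 on the log2 scale. Without *ecd1* replicate 2, 8 mitochondrial and 10 cytosolic genes rose, against 6.89% of all genes, with medians of 0.63 and 0.47.

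**Figure D3:**
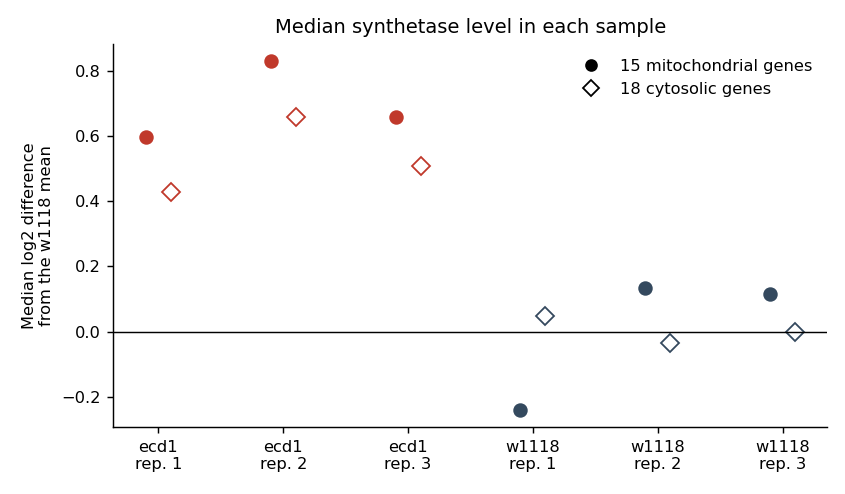
Median over the 15 mitochondrial genes (filled circles) and the 18 cytosolic genes (open diamonds) of the log2 difference between a sample and the *w1118* mean, for each *ecd1* (red) and *w1118* (blue) sample. The *ecd1* samples lie between 0.43 and 0.83, and *w1118* replicate 1 stands lowest for the mitochondrial genes at −0.24.

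For 12 amino acids there is a mitochondrial and a cytosolic gene of its own, and the pairs did not change by the same amount. The mitochondrial gene had the larger log2 fold change in 7 pairs and the smaller in 5, with a median difference of 0.15 (range −0.23 to 1.09). The level of the mitochondrial gene was set against the cytosolic one in the same sample, as normalized counts per exon length, a ratio that does not depend on the scaling of samples. *AsnRS-m* stood at 23.8%, 28.9% and 27.0% of the level of *AsnRS* in *ecd1* and at 8.40%, 16.8% and 13.7% in *w1118*. This was the pair that differed most, by 1.09 on the log2 scale, since *AsnRS-m* rose and the cytosolic gene stayed within the spread of its controls. *IleRS-m* stood at 17.4% ± 1.05 of *IleRS* in *ecd1* and at 9.57% ± 0.547 in *w1118* (SD, n = 3 each). *MetRS-m* stood at 22.6% ± 0.830 of *MetRS* in *ecd1* and at 13.2% ± 2.00 in *w1118*, and *LeuRS-m* at 46.4% ± 2.83 of *LeuRS* in *ecd1* and at 30.2% ± 4.08 in *w1118* (SD, n = 3 each). In these 4 pairs and in that of tyrosine, 5 of the 12, the ratios of the mutant samples all lay above those of the controls, and in no pair did they all lie below. The ratios are given as a description, with no test.

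The difference was smaller in the other pairs or ran the other way. The log2 fold change of the mitochondrial gene exceeded that of the cytosolic one by 0.40 for tyrosine, 0.20 for alanine and 0.10 for arginine. It was below it for cysteine (−0.03), serine (−0.08), aspartate (−0.20), tryptophan (−0.23) and valine (−0.23). *AspRS-m* stood at 57.7% ± 3.56 of *AspRS* in *ecd1* and at 67.0% ± 12.0 in *w1118* (SD, n = 3 each), where the samples overlapped. The aspartate ratio is less certain than the rest, because 73.5% of the exon bases of *AspRS* are shared with other genes. Set against the shared cytosolic gene *GluProRS*, *ProRS-m* changed by 0.54 more and *GluRS-m* by 0.35 less on the log2 scale. In *w1118* the mean ratios of the 12 pairs ran from 8.43% for serine to 67.0% for aspartate, so the mitochondrial gene was the less abundant one per exon length in each of them.

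**Figure D4:**
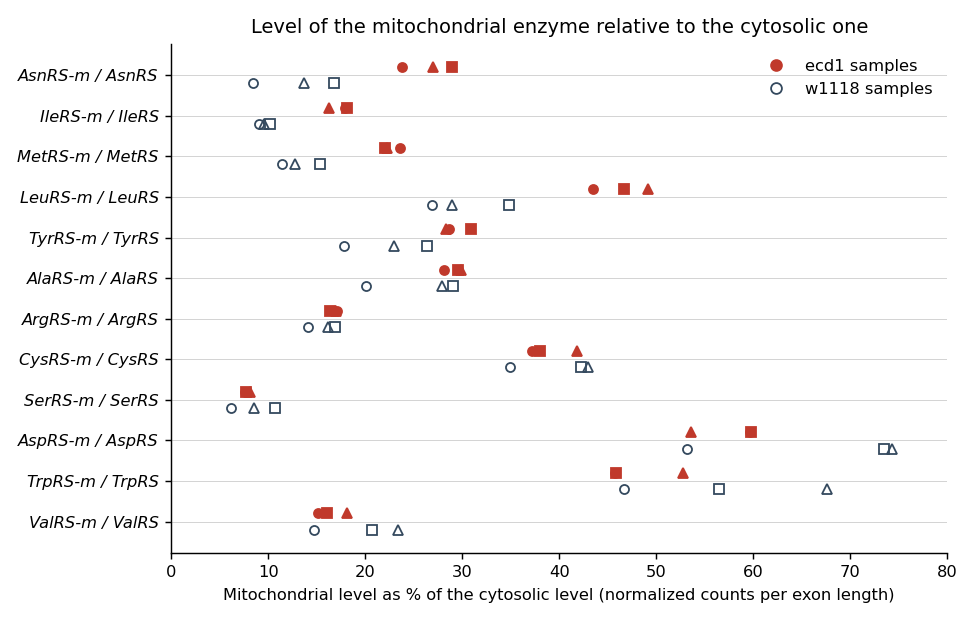
Level of each mitochondrial synthetase gene as a percent of the cytosolic gene for the same amino acid, from normalized counts per exon length, in *ecd1* (filled red, upper row of each pair) and *w1118* samples (open blue, lower row), with circles, squares and triangles for replicates 1, 2 and 3. Pairs are ordered by the difference in log2 fold change, and for asparagine, at the top, the *ecd1* samples stand at 23.8% to 28.9% and the *w1118* samples at 8.40% to 16.8%.

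Some features that the symbols do not encode were set beside the changes, as descriptions. By structural class, 6 of 6 class II mitochondrial genes rose with a median log2 fold change of 0.76, against 5 of 9 of class I with a median of 0.46. Among all genes 16.0% were called higher. Without *ecd1* replicate 2 the calls on *SerRS-m* and *AspRS-m*, of class II, and on *ArgRS-m*, of class I, were lost. In the cytosol 7 of 8 class II genes rose with a median of 0.64, against 7 of 9 of class I with a median of 0.36, *GluProRS* being of both. The 4 mitochondrial genes that did not pass are all of class I, as are *IleRS* and *CysRS*, while *AsnRS* is of class II. The 6 cytosolic genes with no mitochondrial gene of the same name (*GlnRS*, *GluProRS*, *GlyRS*, *HisRS*, *LysRS* and *ThrRS*) all rose, with a median of 0.67. Among those that have one, 9 of 12 rose with a median of 0.43, against 16.0% of all genes. *GluProRS*, the largest cytosolic change, is among the 6 by its spelling only, since *GluRS-m* and *ProRS-m* serve the same amino acids. In humans the cytosolic and mitochondrial glycyl and lysyl enzymes come from the same gene. The members lie on chromosome arms 2L (6 genes), 2R (8), 3L (10), 3R (6) and on the X (3). Exon bases are shared with another gene in 16 of them, over 10% of the bases in 5. Among genes sharing at most 10%, 9 of 12 mitochondrial genes rose with a median of 0.87, and 13 of 16 cytosolic genes with a median of 0.51.

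The proteins that work beside the synthetases were described from a list of 7 genes, of which 6 were tested. Of these 3 rose and none fell, against 16.0% and 19.1% of all genes. *Slimp*, a relative of the seryl enzyme that partners SerRS-m in fly mitochondria, had 1563, 1746 and 1441 normalized counts in *ecd1* and 722, 965 and 975 in *w1118*. The genotypes did not overlap, and it rose by 0.84 on the log2 scale (SE 0.16, limma adjusted p = 0.00861), against 0.53 for *SerRS-m*. *GatB*, a subunit of the amidotransferase that turns the product of GluRS-m into glutaminyl-tRNA, rose by 0.71 (SE 0.19, limma adjusted p = 0.0281), a call lost without *ecd1* replicate 1 (0.0582), 2 (0.103) or 3 (0.0505). *AIMP3* rose by 0.53 (SE 0.09, limma adjusted p = 0.00691). *AIMP1*, *GatA* and *AIMP2* had log2 fold changes of 0.32, 0.31 and 0.27 and did not pass by limma, while edgeR, DESeq2 and limma with TMM scaling each called 5 of the 6 higher, against 17.4%, 19.7% and 17.6% of all genes.

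The steps after charging in mitochondria were described from 2 lists. Of 8 mitochondrial translation factors 5 rose and none fell, against 16.0% and 19.1% of all genes, with a median log2 fold change of 0.58. Leaving out *ecd1* replicate 2, 3 rose, against 6.89% of all genes. *mEFG1*, which moves the ribosome along the mRNA, rose by 1.25 (SE 0.26, limma adjusted p = 0.0126, but 0.0537 without *ecd1* replicate 2). *mIF2*, an initiation factor, rose by 1.09 (SE 0.13, limma adjusted p = 0.00408). *mEFTu1*, which carries the charged tRNA to the ribosome, rose by 0.84 (SE 0.12, limma adjusted p = 0.00509). Of 72 mitochondrial ribosomal protein genes tested 52 rose, none fell and 20 did not pass, against 16.0% higher and 19.1% lower among all genes. The log2 fold change was positive in 68, against 50.6% of all genes, and the median was 0.64. Without *ecd1* replicate 2, 27 rose, against 6.89% of all genes, and without *w1118* replicate 1, 52 rose and 1 fell. The largest were *mRpS26* (1.61), *mRpL2* (1.27) and *mRpL12* (1.15), with limma adjusted p of 0.00147, 0.00147 and 0.00408. Summed, these genes had 196579 to 220348 normalized counts in *ecd1* and 108127 to 152654 in *w1118*, with *w1118* replicate 1 lowest as in the mitochondrial synthetases.

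Of 14 tested genes that copy or transcribe the mitochondrial genome or process its tRNAs, 8 rose and none fell, against 16.0% and 19.1% of all genes. Their median log2 fold change was 0.63, and 4 rose without *ecd1* replicate 2, against 6.89% of all genes. *tam*, the catalytic subunit of the mitochondrial DNA polymerase, had 1722, 2606 and 2093 normalized counts in *ecd1* and 858, 846 and 940 in *w1118*. The genotypes were far apart, and the log2 fold change was 1.26 (SE 0.16, limma adjusted p = 0.00454). *mtSSB*, which binds single-stranded mitochondrial DNA, rose by 1.07 (SE 0.30, limma adjusted p = 0.0319), a call lost without *ecd1* replicate 2 (0.0708) or 3 (0.0506) or *w1118* replicate 1 (0.0600), 2 (0.0648) or 3 (0.0775). *bsf*, which acts on mitochondrial transcripts, rose by 0.96 (SE 0.21, limma adjusted p = 0.0155, but 0.0614 without *ecd1* replicate 2). Of the tRNA substrates themselves, 0 of 22 mitochondrial and 2 of 297 nuclear tRNA genes passed the filter on low values and neither of those was called.

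Among genes of the later steps of translation in the cytosol, a minority passed the test. Of 9 elongation and release factors 3 rose and none fell, against 16.0% and 19.1% of all genes. Their median log2 fold change was 0.34 and 5 were positive, against 50.6% of all genes. In 5 of the 9 all *ecd1* samples lay above all *w1118* samples, against 26.7% of all genes. In *eRF1* (−0.23) and *eEF1beta* (−0.18), neither called, all *ecd1* samples lay below all *w1118* samples, as they did in 3472 of the 12930 genes tested. DESeq2 called 5 higher and 1 lower, against 19.7% and 22.7% of all genes. Limma on samples scaled to the total called 2 higher and 1 lower, against 11.4% and 21.3%. *eEF2*, which moves the ribosome, rose by 0.65 (SE 0.16, limma adjusted p = 0.0223), *eEF1gamma*, part of the exchange factor for the tRNA carrier, by 0.53 (SE 0.12, adjusted p = 0.0181), and *eRF3*, a release factor, by 0.45 (SE 0.11, adjusted p = 0.0207). None of the 3 was called without *ecd1* replicate 2 (limma adjusted p = 0.0916 for *eEF2*, 0.0721 for *eEF1gamma* and 0.0650 for *eRF3*) or without *w1118* replicate 3 (0.0693, 0.0639 and 0.0748), and *eEF2* and *eEF1gamma* were also lost without *ecd1* replicate 3 (0.0585 and 0.0611) or *w1118* replicate 2 (0.0757 and 0.0618), and *eRF3* when scaled to the total (0.0542). Of 90 cytosolic ribosomal protein genes tested 21 rose and 7 fell, or 23.3% and 7.78%, against 16.0% and 19.1% of all genes, with a median of 0.27. The log2 fold change was positive in 76, against 50.6% of all genes. In 56 all *ecd1* samples lay above all *w1118* samples, against 26.7% of all genes, and in 6 all lay below. Summed, these genes had 10169976 to 11219423 normalized counts in *ecd1* and 8685792 to 8812412 in *w1118*, without overlap. Only 1 rose without *ecd1* replicate 2, against 6.89% of all genes. Without *ecd1* replicate 3 or *w1118* replicate 2 there were 4, against 10.4% and 10.7%, and without *w1118* replicate 3 there were 5, against 10.0%. Without *ecd1* replicate 1 or *w1118* replicate 1, 22 and 27 rose, against 12.7% and 18.8%. With the replicate block 12 rose, against 15.5%, and when scaled to the total 9, against 11.4%. DESeq2 called 44 higher, against 19.7% of all genes. The largest changes among them were decreases, in *RpL10Aa* (−2.35), *RpS28-like* (−1.87) and *RpL37b* (−1.26), each of which has close relatives with which it may share reads. Male germ line genes, of which 13 of 18 fell with a median of −1.87, against 19.1% of all genes, went the same way. Their part in these decreases was not tested. *RpL10Aa* had a limma adjusted p of 0.00583, *RpS28-like* of 0.0290 and *RpL37b* of 0.0448. The call on *RpS28-like* was lost without *ecd1* replicate 1 (0.0693) or 2 (0.0931), without *w1118* replicate 1 (0.0641), 2 (0.0588) or 3 (0.0721) and with the replicate block (0.0506), and that on *RpL37b* without *ecd1* replicate 1 (0.120) or 2 (0.145) or *w1118* replicate 2 (0.115) or 3 (0.126), by limma.

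In mammals, synthetase genes are known targets of the amino acid response, in which the kinases GCN2 and PERK act through the transcription factor ATF4, whose fly gene is *crc*. *Gcn2* rose by 0.52 on the log2 scale (SE 0.10, limma adjusted p = 0.00876), as did *PEK*, the fly gene for PERK (0.52, SE 0.11, limma adjusted p = 0.0146, but 0.0557 without *ecd1* replicate 2). *crc* had 31720, 33271 and 33123 normalized counts in *ecd1* and 24977, 28789 and 29783 in *w1118*. The samples did not overlap, but the log2 fold change of 0.24 did not pass (limma adjusted p = 0.113). *AsnS*, which makes asparagine, moved the other way from *AsnRS-m*, with 1411, 1219 and 1750 normalized counts in *ecd1* and 8081, 3520 and 7526 in *w1118*. It fell by 2.05 on the log2 scale (SE 0.33, limma adjusted p = 0.00609). Of the 6 genes of this list 2 rose and 1 fell, against 16.0% and 19.1% of all genes, with a median of 0.14, and 1 rose without *ecd1* replicate 2.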

How the data were processed

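Total RNA of whole *ecd1* and *w1118* larvae was sequenced in 3 samples of each genotype. The authors mapped the reads to dm6 (TopHat2 2.0.10), took counts per gene from featureCounts 1.6.4 and scaled these by DESeq2. Strand and overlap settings are not given in the sources used here. The deposited normalized counts are a signal, a count divided by the size factor of its sample. In the deposited sequencing report the fraction of reads on 1 strand and the insert size were read. Other deposited tables hold the authors' own fold changes, p-values, GO enrichments and splicing differences, and none of their values was used. Every column of per-sample values could be assigned to a sample.

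Low values fall on whole multiples of a single read, so reads could be recovered, and 100% of nonzero values came within 0.05 of a whole number. The size factors were 1.06, 1.31 and 0.841 in *ecd1* and 0.840, 0.848 and 1.22 in *w1118*. The table's identifiers were found in Ensembl release 115 on the same build for 17527 genes, which gave positions, exon lengths and overlaps.

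Log2(normalized count + 1) was compared in R 4.3.3 by limma 3.58.1 (trend, two-sided) over genes with a mean of at least 10, adjusted by Benjamini-Hochberg. Fold changes on this scale understate the change of low genes. The units differ from raw counts, so edgeR 4.0.16 and DESeq2 1.42.0 were run as alternatives on the recovered reads, which called 2244 and 2547 genes higher. The other alternatives were a pseudocount of 5, no filter, no trend, scaling to the total, TMM scaling, the replicate number as a block and leaving out each sample. The fit was tested on simulated data.

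For same-numbered replicates 1, 2 and 3, deviations from the genotype means had correlations of 0.209, 0.232 and 0.225, against −0.274 to 0.0541 for other combinations. The pairing comes from these values, since the sources do not say what the numbers stand for.

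Members and lists were chosen with earlier results of these data known. The 4 called genes of each compartment with the largest change, the 2 largest not called and, where it helps, enzymes of the same amino acid were given per sample, and up to 3 called genes per list were named. *PheRS-m*, *alpha-PheRS*, *beta-PheRS*, *Slimp*, *tam*, *crc* and *AsnS* were given per sample after their values were seen. Protein and promoter sequences were not analysed here.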

Additional observations from a re-analysis of the deposited data

How the results depend on the processing

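The counts of genes that rose and the medians of both compartments stayed within 1.5 times of the values above, or within the spread of the replicates, under 14 alternatives. Leaving out 1 sample gave 10 to 13 cytosolic and 8 to 11 mitochondrial genes that rose, against 6.89% to 18.8% of all genes. The median log2 fold changes were 0.47 to 0.58 and 0.63 to 0.74. No synthetase gene fell under any of the 14. The replicate block gave 12 cytosolic and 10 mitochondrial genes that rose, against 15.5% of all genes, and changed no call on a synthetase besides the 4 named above. Of single genes, 49 values lost their call and 2 changed sign, both in genes that had not passed: leaving out 1 sample gave *AsnRS* a log2 fold change of −0.031 (without *w1118* replicate 2) to 0.22, and *TrpRS-m* of −0.075 (without *w1118* replicate 1) to 0.23. Scaling to the total ended the calls on *MetRS*, *ThrRS*, *LeuRS*, *ArgRS*, *TrpRS*, *SerRS-m* and *ArgRS-m*, by limma adjusted p-values of 0.0567 to 0.142. Fitting without a trend gave 11 cytosolic genes that rose, against 13.1% of all genes called higher. It ended the calls on *MetRS* (limma adjusted p = 0.0530), *LeuRS* (0.0771), *ArgRS* (0.0597) and *TrpRS* (0.0886), and using no filter ended that on *TrpRS* (0.0571). Scaling to the total moved the median of all genes to −0.06. The lowest value of a synthetase gene in any sample was 424 normalized counts, in *GluRS-m*.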
